A study of Mus musculus with 30 samples.

Results

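The kinesin motor family was taken as every gene of the deposited expression table whose symbol is Kif or Kifc followed by a number and at most 1 letter from a to c. The rule found 41 genes among 49585 table entries. The RNA came from mouse embryos of the 8-cell stage from a BDF1 x BDF1 cross, cultured in KSOM medium. The first group was depleted of Yy1, which encodes the zinc finger protein YY1, by knockdown with the small interfering RNA that the study numbers 1, and the other went through a control knockdown. Each group had 2 libraries of total RNA, prepared with a SMART-Seq stranded kit. How many embryos went into a library, and whether replicates were separate collections, was not stated in the labels, so p-values cover only the scatter of these libraries, part or all of which may be technical. The question was whether transcripts of transport kinesins and of mitotic kinesins differ between the groups.

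Kinesins are motor proteins that use ATP to walk along microtubules or to take microtubule ends apart. Transport kinesins carry vesicles, mitochondria, endosomes and RNA through the cytoplasm, most of them towards microtubule plus ends. Mitotic kinesins build the spindle, move chromosomes and organise the midzone at which the cell divides. Cleavage stage embryos divide without growing, and their early divisions draw on transcripts and proteins stored in the egg as well as on new transcription.

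Yy1 was at 5.89 and 7.98 FPKM after Yy1 knockdown, against 77.7 and 71.2 FPKM after control knockdown. FPKM are fragment counts divided by gene length and library size. The groups were far apart, with a mean 10.7-fold lower after Yy1 knockdown and a log2 fold change of -3.26 (SE 0.185, limma with Benjamini-Hochberg adjusted p = 0.0556). Library totals, inferred from the steps between FPKM values, were 34074291 and 29302489 fragments after Yy1 knockdown and 34429515 and 31405476 in control. Pearson correlations across genes, which are not independent replicates, were 0.966 between Yy1 knockdown replicates, 0.969 between control replicates and 0.959 to 0.97 across groups. Of 13 markers of 8-cell embryos 12 had a mean of at least 1 FPKM, with sums of 2774 and 2633 FPKM after Yy1 knockdown and 2729 and 2615 FPKM in control that were mostly Dppa3, and Sox2 was at most 0.186 FPKM. Within that list the keratins Krt18, at 20.8 and 28.6 FPKM after Yy1 knockdown and 4.52 and 11.7 FPKM in control, and Krt8, at 31.6 and 23.5 FPKM after Yy1 knockdown and 11.1 and 20.7 FPKM in control, stood higher, and Klf4, at 22.1 and 16.5 FPKM after Yy1 knockdown and 26.4 and 31.4 FPKM in control, lower (limma adjusted p of 0.5, 0.556 and 0.532). They are named for the smallest p of the list. Over the 12 tested markers 6 were higher and 6 lower, with a median log2 fold change of 0.01. Of 10 oocyte markers 9 were tested, with sums of 58.5 and 46.3 FPKM after Yy1 knockdown and 46.9 and 43.9 FPKM in control, a median log2 fold change of 0.26, and 4 with both Yy1 knockdown libraries above both controls (44.4%, beside 21.8% of all genes tested) and none below. Among markers of other cells, 3 of 18 for cumulus and granulosa cells, 1 of 15 for sperm and 1 of 10 for blood reached that mean. The cumulus sums, 143 and 134 FPKM after Yy1 knockdown and 145 and 172 FPKM in control, were nearly all Gja1, a gap junction gene that embryos also use, and 6 of the 18 were at 0 throughout, Fshr and Lhcgr among them. Amhr2 was at 7.8 and 7.3 FPKM after Yy1 knockdown and 5.35 and 4.74 FPKM in control, without overlap (log2 fold change 0.50, limma adjusted p = 0.541). Inhbb was at 2.3 and 0.666 FPKM after Yy1 knockdown and 1.9 and 0.943 FPKM in control. Of the 3 tested, 1 was higher and 2 lower by log2 fold change. The sperm sums were 3.71 and 6.98 FPKM after Yy1 knockdown and 4.29 and 5.99 FPKM in control, with 8 of 15 markers, Prm1 and Tnp1 included, at 0. The blood sums were 3.61 and 4.79 FPKM after Yy1 knockdown and 2.74 and 1.82 FPKM in control, with Hbb-bs and Hbb-bt at 0, Hba-a1 and Hba-a2 between 0.118 and 0.921 FPKM, and Cd68 at 2.33 and 3.04 FPKM after Yy1 knockdown and 1.43 and 1.14 FPKM in control. The part of these cells and markers in the results below was not tested. In such bulk samples fewer cells using a gene and less RNA per cell cannot be told apart.

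Kinesin transcripts were dominated by mitotic motors in every library, and members stood on both sides of their control levels. Of the 41 genes, 27 averaged at least 1 FPKM across libraries and were tested: 10 of 15 transport kinesins, 14 of 15 mitotic kinesins and 3 of 11 others. Just inside that threshold stood Kif9, with a mean of 1.32 FPKM, and just outside it Kif13a, with 0.993 FPKM. Kif9 reached the threshold only through the Yy1 knockdown libraries, where it was the higher. By log2 fold change the largest gaps between the groups belonged to Kif5b and Kif11, lower after Yy1 knockdown in both libraries, and to Kif4, higher in both. None of the 27 passed an adjusted p of 0.05 in limma, as was the case for all 12120 genes tested (0% called). At an unadjusted p under 0.05 there were 3 kinesins, or 11.1%, namely Kif5b, Kif11 and Kif4, beside 8.90% of all genes tested. Both Yy1 knockdown libraries stood above both controls for 6 kinesins, or 22.2%, beside 21.8% of all genes, and below both for 5, or 18.5%, beside 18.9% of all genes. The 6 kinesins above include Kif9, which the filter kept only through the group where it was high. These shares are close to the background and are no result about the family. By log2 fold change 13 kinesins were higher and 14 lower, with a median of -0.01, beside 0.02 over all genes tested.

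**Figure D1:**
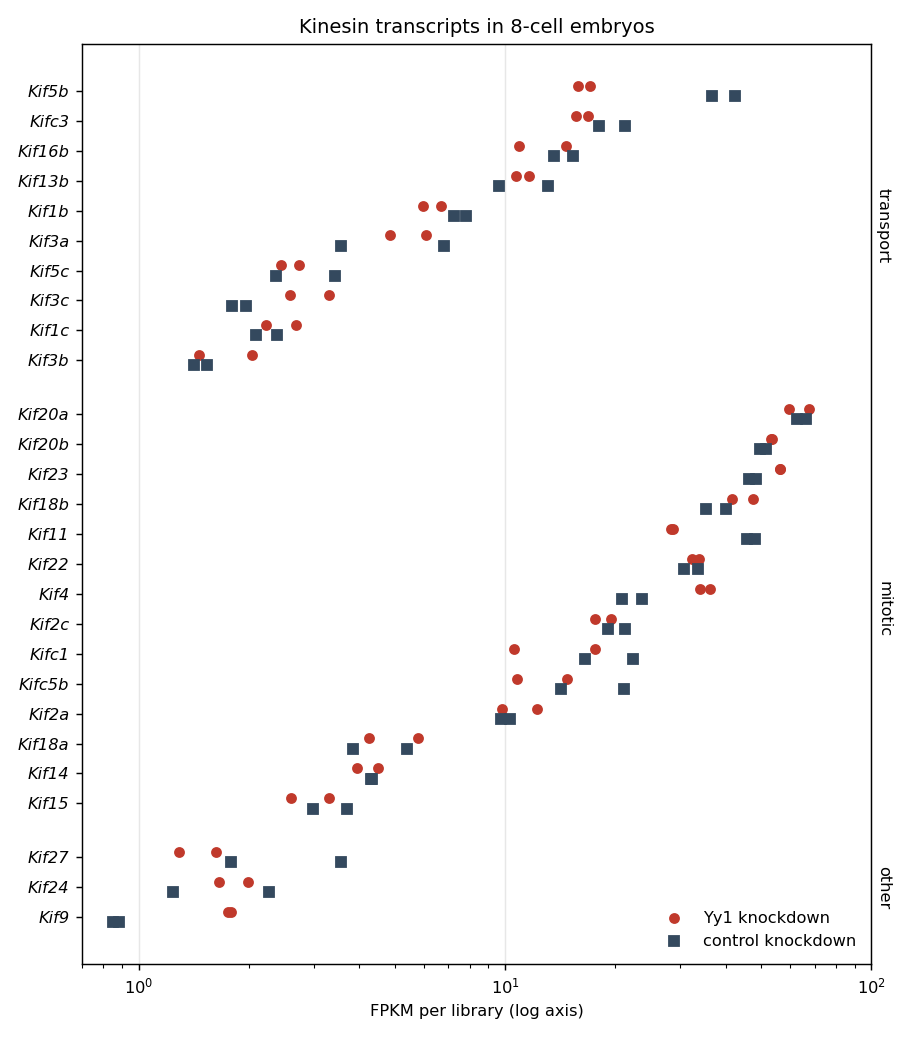
FPKM of the 27 tested kinesins in each library on a log axis, with red circles for the 2 Yy1 knockdown libraries and dark squares for the 2 control libraries of each gene, grouped by role and sorted by mean. Mitotic kinesins fill the upper range to 67.6 FPKM, and Kif5b, Kif11 and Kif4 are the abundant genes whose circles and squares lie well apart.

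Among transport kinesins the gap between groups was widest for Kif5b, the widely used heavy chain of kinesin-1, which carries mitochondria, lysosomes and many vesicles. Kif5b was at 17.1 and 15.8 FPKM after Yy1 knockdown and at 36.7 and 42.5 FPKM in control. The groups did not overlap, and the lower control library still held over 2 times the level of the higher Yy1 knockdown library. The means were 16.4 ± 0.961 FPKM after Yy1 knockdown and 39.6 ± 4.15 FPKM in control (SD, n = 2 each), the first 2.41-fold lower. On the log2 scale the fold change was -1.22 (SE 0.156), with an unadjusted p of 0.000348 and a limma adjusted p of 0.237 over all 12120 genes. Behind these values stood at least 4316 and 3417 fragments after Yy1 knockdown and 9333 and 9876 fragments in control, so counting error is small beside the gap. The call depended on the test: the adjusted p was 0.0421 when protein-coding genes alone were fitted, a fit that called 14 of 8216 genes (0.170%), and 0.00946 with limma-voom on fragments recovered from the FPKM, which called 13 of 12119 genes (0.107%). Over all alternatives the adjusted p ran from 0.00946 to 0.84 and the log2 fold change from -1.32 to -1.11, so the direction was the same in each.

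The other kinesin-1 heavy chains, known mostly from neurons, were far below Kif5b. Kif5c was at 2.74 and 2.45 FPKM after Yy1 knockdown and at 2.37 and 3.43 FPKM in control. Those ranges overlapped (log2 fold change -0.11, limma adjusted p = 0.921). Kif5a stayed between 0.0865 and 0.14 FPKM after Yy1 knockdown and between 0.0908 and 0.166 FPKM in control, below the threshold for testing. Kif5b therefore made up 85.6% and 86.2% of kinesin-1 FPKM in the Yy1 knockdown libraries and 93.5% and 92.4% in the control libraries.

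Kinesin-2 motors carry cargo along cilia and in the cytoplasm, as Kif3a with Kif3b or Kif3c, or as Kif17 alone. Kif3c was at 2.59 and 3.3 FPKM after Yy1 knockdown and at 1.79 and 1.96 FPKM in control. Its groups did not overlap, with a 1.57-fold higher mean after Yy1 knockdown, a log2 fold change of 0.45 (SE 0.235) and a limma adjusted p of 0.629. Kif3a was at 4.84 and 6.09 FPKM after Yy1 knockdown, inside its control values of 3.56 and 6.81 FPKM (log2 fold change 0.11, limma adjusted p = 0.938). Kif3b, which pairs with Kif3a, was at 1.46 and 2.03 FPKM after Yy1 knockdown and at 1.53 and 1.41 FPKM in control (log2 fold change 0.15, limma adjusted p = 0.89). Kif3a and Kif3b thus overlapped between groups, while Kif3c did not.

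Kinesin-3 motors move vesicles and endosomes. Kif16b, which binds early endosomes, was at 14.7 and 10.9 FPKM after Yy1 knockdown and at 15.3 and 13.6 FPKM in control (log2 fold change -0.18, limma adjusted p = 0.806). Kif13b was at 11.6 and 10.7 FPKM after Yy1 knockdown, between its control values of 9.64 and 13.1 FPKM (log2 fold change -0.01, limma adjusted p = 0.99). Both overlapped between the groups. Kif1b, a carrier of mitochondria and synaptic vesicle precursors, was at 6.67 and 5.95 FPKM after Yy1 knockdown and at 7.24 and 7.83 FPKM in control. These groups did not overlap, but the log2 fold change was -0.22 with a limma adjusted p of 0.735. Kif1c was at 2.68 and 2.23 FPKM after Yy1 knockdown and at 2.39 and 2.09 FPKM in control, with overlap (log2 fold change 0.09, limma adjusted p = 0.927). Kifc3, a minus-end-directed motor of the kinesin-14 group, was at 15.6 and 16.8 FPKM after Yy1 knockdown and at 18.1 and 21.2 FPKM in control. Its groups lay apart with a log2 fold change of -0.26 and a limma adjusted p of 0.675. Over the 10 tested transport kinesins 4 were higher and 6 lower, the median was -0.06 and the range -1.22 to 0.45. Without control replicate 2 the median was 0.058, so its sign rested on that library.

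**Figure D2:**
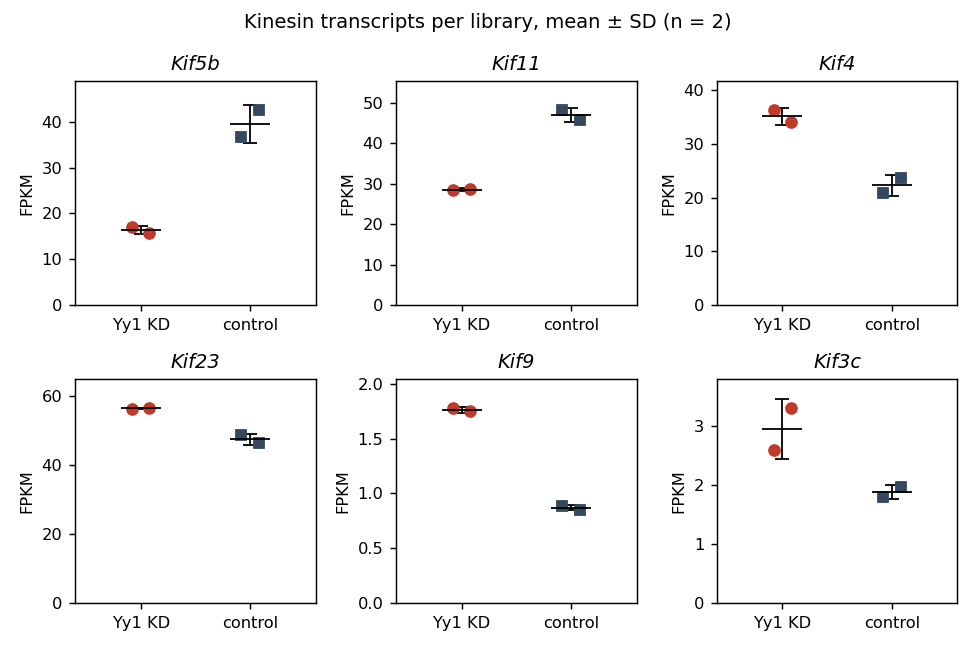
FPKM of Kif5b, Kif11, Kif4, Kif23, Kif9 and Kif3c, with red circles for Yy1 knockdown libraries on the left, dark squares for control libraries on the right, and black bars for the mean ± SD of 2 libraries. Every axis starts at 0, and in each of the 6 panels the groups do not overlap; the panels were picked for that separation.

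Mitotic kinesins held nearly the same summed level in all libraries, 382 and 385 FPKM after Yy1 knockdown and 382 and 381 FPKM in control, with single members on both sides of their control levels. These sums leave out the mitotic kinesin Cenpe, whose symbol does not match the rule and which was lower in both Yy1 knockdown libraries. Of the 14 tested, 7 were higher and 7 lower by log2 fold change, the median was 0.01 and the range -0.70 to 0.64. The Yy1 knockdown libraries both exceeded the controls for Kif4, Kif18b, Kif20b and Kif23 and were both below them for Kif11, so the groups were apart for 5 of 14, or 35.7%, beside 40.7% of all genes tested. With Yy1 knockdown replicate 1 left out the median was -0.057, and with replicate 2 left out it was 0.059. No mitotic kinesin passed the adjusted threshold in any alternative.

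Many cell cycle genes are held down outside division through the cell cycle homology region, an element near the start that the DREAM complex reads, often with a nearby CCAAT box bound by NF-Y. The letters TTTGAA, a form of that element, stood on either strand in 11 of 15 RefSeq promoter windows of mitotic kinesins, or 73.3%. They stood in 1 of 12 windows of transport kinesins, or 8.33%, in 2 of 10 of other kinesins, or 20%, and in 17.9% of all 32851 windows, with 12.5% among windows of the tested genes. A window runs from 250 bases before a start to 50 bases from it on, in RefSeq GRCm38.p6, and 33 of the 41 genes had 1 or more. Some of these starts lie inside the gene's annotated span, among them those with the TTTGAA match of Kif14, Kif2c, Kif22, Kif27 and Kif1a. For Kif14 (+ strand) the gene begins at chr1:136466301 and the window at chr1:136467598. For Kif2c (- strand) the gene begins at chr4:117182624 and the window at chr4:117179022. For Kif22 (- strand) the gene begins at chr7:127042467, and the stretch printed below lies inside it. Whether such starts are used in these embryos was not tested. CCAAT on either strand was in 60% of mitotic, 33.3% of transport and 40% of other kinesin windows, and in 37.4% of all windows. TTTGAA and CCAAT stood together in 8 mitotic windows, beside 6.95% of all windows. A match of letters is a description and not a bound site. Stretches of 30 bases around the match nearest the start are shown because most windows of the mitotic group hold the match. They read 5′ to 3′ on the gene's strand, and capitals mark TTTGAA or, where it lies on the other strand, TTCAAA.
Kif11: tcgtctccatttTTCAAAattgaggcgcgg
Kif4: ctctgggatcaaTTTGAAacttggcggtta
Kif23: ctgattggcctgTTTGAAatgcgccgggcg
Kif22: gggccccggtaaTTCAAAagagagaagcgg
Kif18b: cggaccggctagTTTGAAcgcgccgcgccg
Kif15: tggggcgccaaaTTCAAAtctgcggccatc
Kifc1: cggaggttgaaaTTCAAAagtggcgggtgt
Kifc5b: cggaggttgaaaTTCAAAagtgactggtgt
Kif20b: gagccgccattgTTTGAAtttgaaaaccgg
Kif2c: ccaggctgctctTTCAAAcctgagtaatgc
In GRCm38.p6 these stretches are chr19:37376351-37376380 (+ strand) for Kif11, chrX:100626072-100626101 (+ strand) for Kif4, chr9:61946780-61946809 (- strand) for Kif23, chr7:127042420-127042449 (- strand) for Kif22, chr11:102925104-102925133 (- strand) for Kif18b, chr9:122951050-122951079 (+ strand) for Kif15, chr17:33890615-33890644 (- strand) for Kifc1, chr17:26917108-26917137 (+ strand) for Kifc5b, chr19:34922353-34922382 (+ strand) for Kif20b and chr4:117178858-117178887 (- strand) for Kif2c. In Kif11 the match begins 19 bases before the annotated start, and in Kif4 at base 20 counted from the start as base 1. The Kif20b stretch holds a further match, in lower case. Kif11 and Kif4 thus both have a match close to the start. Their transcripts stood on opposite sides of their control levels, and any part of the match in that was not tested. The remaining mitotic gene with a match, Kif14, has it farther before the start used for its window. That start lies inside the gene's annotated span, and so does the match, so it is not upstream of the gene. The same holds for the starts and printed matches of Kif2c and Kif22.

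The 250 bases before the start of Kif11 and of Kif4 are shown for that contrast. Capitals mark TTTGAA and CCAAT, or TTCAAA and ATTGG where they lie on the other strand. The sequences are RefSeq GRCm38.p6 on the + strand, chr19:37376132-37376381 for Kif11 and chrX:100625815-100626064 for Kif4.
Kif11: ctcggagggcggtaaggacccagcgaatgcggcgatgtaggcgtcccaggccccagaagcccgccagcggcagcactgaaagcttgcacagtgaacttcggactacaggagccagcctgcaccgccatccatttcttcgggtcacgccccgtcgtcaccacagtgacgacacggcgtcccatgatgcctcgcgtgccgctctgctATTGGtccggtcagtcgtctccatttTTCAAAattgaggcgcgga
Kif4: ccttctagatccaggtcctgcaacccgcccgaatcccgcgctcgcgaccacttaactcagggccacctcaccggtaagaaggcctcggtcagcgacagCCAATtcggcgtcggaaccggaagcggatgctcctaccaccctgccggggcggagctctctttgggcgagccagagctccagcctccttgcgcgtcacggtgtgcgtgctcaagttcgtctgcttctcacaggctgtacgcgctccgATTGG
In Kif11, CCAAT on the other strand begins 45 bases before the start, upstream of the TTTGAA match at 19 bases. Kif4 has CCAAT in the gene's direction upstream and on the other strand directly before the start. GCCATNTT, a form of the YY1 core motif with N for any base, was on neither strand of either window. It was in 2 of 15 mitotic windows, those of Kif15 and Kif20b, in 1 of 12 transport windows, that of Kif13a, in 1 of 10 other windows, that of Kif27, in 6.05% of all windows and in 9.68% of the windows of tested genes. Neither Kif11, Kif4, Kif9 nor Kif3c held it, and the window of Kif5b was not used here. Nothing follows from its absence about binding of YY1.

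**Figure D3:**
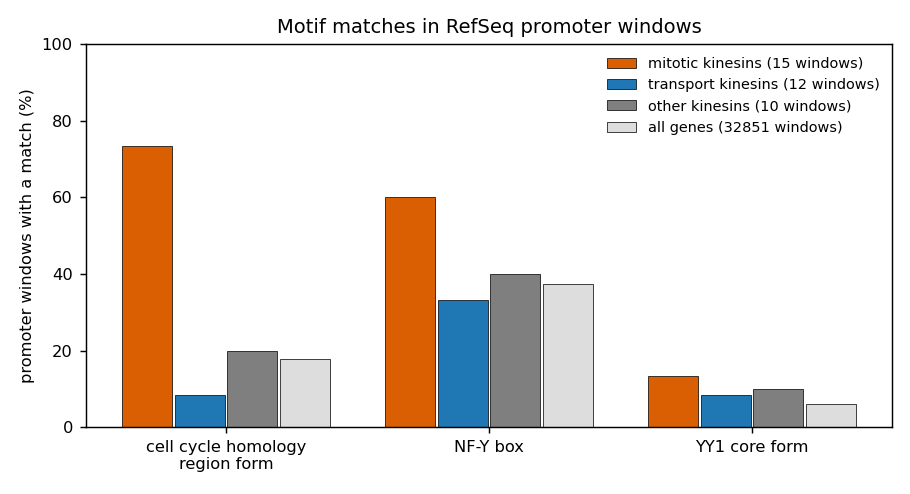
Share of RefSeq promoter windows with a match to each of 3 motifs on either strand, for mitotic, transport and other kinesins and for all genes, as bars from 0 in percent. The cell cycle homology region form is in 73.3% of mitotic kinesin windows and in 17.9% of all windows, while the YY1 core form is in 13.3% of mitotic kinesin windows and 6.05% of all windows, with 9.68% among tested genes.

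Kif11, the tetrameric kinesin-5 that slides antiparallel microtubules to push the spindle poles apart, was lower after Yy1 knockdown. Its levels were 28.4 and 28.8 FPKM after Yy1 knockdown and 48.2 and 45.9 FPKM in control. The libraries within a group were close and the groups did not overlap. The means were 28.6 ± 0.275 FPKM after Yy1 knockdown and 47 ± 1.66 FPKM in control (SD, n = 2 each), the first 1.64-fold lower, with at least 4669 and 4070 fragments after Yy1 knockdown and 8001 and 6942 in control. The log2 fold change was -0.70 (SE 0.135, unadjusted p = 0.00263, limma adjusted p = 0.462), and over the alternatives it ran from -0.73 to -0.66 with adjusted p from 0.112 to 0.84. The gene lies at chr19:37376382-37421863. Kif15, a kinesin-12 that can share the pole-separating work of Kif11, was at 3.3 and 2.61 FPKM after Yy1 knockdown and at 2.98 and 3.71 FPKM in control. Its groups overlapped (log2 fold change -0.14, limma adjusted p = 0.883), and its level was far below that of Kif11 in every library.

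Kifc1 is a minus-end-directed motor that focuses spindle poles, and Kifc5b is its near copy, so the split of reads between them is uncertain. Kifc1 was at 10.6 and 17.6 FPKM after Yy1 knockdown and at 16.5 and 22.4 FPKM in control. Kifc5b was at 10.8 and 14.8 FPKM after Yy1 knockdown and at 14.2 and 21.1 FPKM in control. Both overlapped between groups, with log2 fold changes of -0.46 and -0.43 and limma adjusted p of 0.674 and 0.669, and in both the second library of each group was the higher. Their promoter windows were 91.5% identical over 272 aligned columns, and the 30-base stretches printed above differ at 2 of 30 bases.

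Microtubule ends are trimmed by the kinesin-13 group and damped by kinesin-8. Kif2c, which corrects wrong attachments at kinetochores, was at 19.5 and 17.6 FPKM after Yy1 knockdown and at 21.2 and 19.1 FPKM in control (log2 fold change -0.11, limma adjusted p = 0.858). Kif2a, which acts at spindle poles, was at 12.2 and 9.81 FPKM after Yy1 knockdown and at 10.3 and 9.73 FPKM in control (log2 fold change 0.11, limma adjusted p = 0.875). Both overlapped. Kif18b was at 47.5 and 41.6 FPKM after Yy1 knockdown and at 40.2 and 35.4 FPKM in control, without overlap but with a narrow gap (log2 fold change 0.23, limma adjusted p = 0.679). Kif18a, which restrains chromosome swings at the metaphase plate, was at 5.8 and 4.24 FPKM after Yy1 knockdown and at 5.39 and 3.84 FPKM in control (log2 fold change 0.10, limma adjusted p = 0.926). The pair of kinesin-8 genes differed several fold in level, on a scale that is per length.

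The chromokinesins bind chromosome arms and push them to the spindle equator. Kif4, which also sets the length of midzone microtubules with Prc1, was higher after Yy1 knockdown. Its levels were 36.2 and 34 FPKM after Yy1 knockdown and 20.9 and 23.6 FPKM in control. The groups were well apart, with means of 35.1 ± 1.58 FPKM after Yy1 knockdown and 22.3 ± 1.96 FPKM in control (SD, n = 2 each), a 1.58-fold higher level. The log2 fold change was 0.64 (SE 0.149, unadjusted p = 0.0063, limma adjusted p = 0.462), and over the alternatives it ran from 0.55 to 0.72 with adjusted p from 0.178 to 0.84. The gene lies at chrX:100626065-100727271. The other chromokinesin, Kif22, was at 33.8 and 32.4 FPKM after Yy1 knockdown and at 33.7 and 30.8 FPKM in control, with overlap (log2 fold change 0.04, limma adjusted p = 0.955). Kif4 over Kif22 was 1.07 and 1.05 in the Yy1 knockdown libraries and 0.62 and 0.768 in the control libraries, a ratio chosen after its values were seen.

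Of the kinesins of the midzone and of cytokinesis, Kif20a, Kif20b and Kif23 had the highest mean FPKM of the family, while Kif14 ranked 19 of 41. Kif20a, which brings the chromosomal passenger complex to the midzone, was at 59.7 and 67.6 FPKM after Yy1 knockdown and at 66.4 and 62.6 FPKM in control. The groups overlapped (log2 fold change -0.02, limma adjusted p = 0.971). Kif23, the motor of the centralspindlin complex, was at 56.2 and 56.4 FPKM after Yy1 knockdown and at 48.5 and 46.3 FPKM in control. Its means were 56.3 ± 0.158 FPKM after Yy1 knockdown and 47.4 ± 1.57 FPKM in control (SD, n = 2 each), without overlap (log2 fold change 0.24, SE 0.13, limma adjusted p = 0.632). Kif20b, which acts late in cytokinesis, was at 53.3 and 53.7 FPKM after Yy1 knockdown and at 49.5 and 51.7 FPKM in control, apart by a small gap (log2 fold change 0.08, limma adjusted p = 0.881). Kif14, which works with citron kinase in cytokinesis, was at 4.5 and 3.95 FPKM after Yy1 knockdown and at 4.32 and 4.3 FPKM in control (log2 fold change -0.03, limma adjusted p = 0.977). Cenpe, a kinetochore kinesin that the symbol rule leaves out, was at 83.5 and 81.3 FPKM after Yy1 knockdown and at 90.5 and 97.2 FPKM in control. Its groups did not overlap (log2 fold change -0.19, limma adjusted p = 0.694). Cenpe exceeded every gene of the rule in all 4 libraries.

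**Figure D4:**
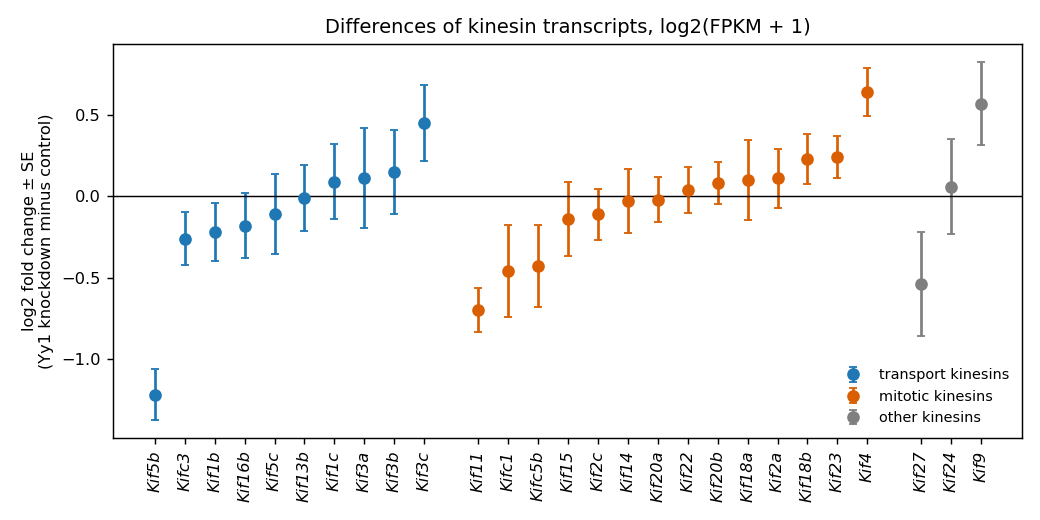
Log2 fold change, Yy1 knockdown minus control on log2(FPKM + 1), of the 27 tested kinesins, with bars for the standard error from limma and colours for the role. Each role has members on both sides of 0, and Kif5b at -1.22 lies farthest from it.

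Kinesins of neither role were low. Kif9, known from sperm flagella and motile cilia, was at 1.78 and 1.75 FPKM after Yy1 knockdown and at 0.885 and 0.852 FPKM in control. The groups did not overlap, with a 2.03-fold higher mean after Yy1 knockdown, but Kif9 reached the threshold for testing only through the Yy1 knockdown libraries. Its log2 fold change was 0.57 (SE 0.257, limma adjusted p = 0.599), a scale that understates the fold of low genes. Kif27, also linked to motile cilia, was at 1.29 and 1.62 FPKM after Yy1 knockdown and at 1.78 and 3.57 FPKM in control (log2 fold change -0.54, limma adjusted p = 0.669). Its groups lay apart by a small gap beside a wide spread between the controls. Kif24, which acts at centrioles against cilium growth, was at 1.65 and 1.98 FPKM after Yy1 knockdown, inside its control values of 1.24 and 2.26 FPKM (log2 fold change 0.06, limma adjusted p = 0.965).

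The 14 kinesins below the threshold were Kif13a, Kif17, Kifc2, Kif21a, Kif21b, Kif19a, Kif26a, Kif7, Kif5a, Kif1a, Kif6, Kif26b, Kif2b and Kif12, with library values from 0 to 1.29 FPKM. Kif2b and Kif12 were listed at 0 in all 4 libraries, and Kif26b above 0 only in control replicate 2. Both Yy1 knockdown libraries stood above both controls for Kif17, Kifc2, Kif21b, Kif26a and Kif7, which were not tested. That is 5 of the 12 that were above 0 in any library, or 41.7%, beside 16.0% of the 17607 genes below the threshold and above 0. Those 17607 genes were not matched to the 12 for level and include genes above 0 in a single library. The shares are therefore no result about the family. Some of the 5 rest on few recovered fragments, Kif7 on 12 and 12 after Yy1 knockdown and 1 and 2 in control. Kif26a had 88 and 75 after Yy1 knockdown and 30 and 3 in control. Kif17 was at 1.29 and 0.901 FPKM after Yy1 knockdown and at 0.551 and 0.618 FPKM in control. Kifc2, a motor of axons, was at 0.952 and 0.803 FPKM after Yy1 knockdown and at 0.453 and 0.355 FPKM in control. In both genes the groups were apart at levels near or below 1 FPKM. Kif7, a kinesin of the Hedgehog pathway at the cilium tip, was at 0.231 and 0.268 FPKM after Yy1 knockdown and at 0.019 and 0.0417 FPKM in control, but it overlaps Ticrr, which was at 26.7 and 25.7 FPKM after Yy1 knockdown and at 24.1 and 26.4 FPKM in control. Since the strand setting of the counting is not given, reads of overlapping genes cannot be told apart. The same limit holds for Kif20a with Brd8 and Cdc23, Kif2a with Dimt1, Kif18a with Mettl15, Kif14 with Gm29485, Kifc2 with Cyhr1 and Foxh1, and Kif5a with Dctn2.

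In the make-up of the family the widest gaps in mean FPKM were those of Kif5b and Kif11. All 41 kinesins summed to 472 and 472 FPKM in the Yy1 knockdown libraries and to 488 and 504 FPKM in the control libraries. Transport kinesins summed to 83.2 and 79.4 FPKM after Yy1 knockdown and to 101 and 116 FPKM in control. Without Kif5b, a comparison chosen after the values were seen, they summed to 66.1 and 63.6 FPKM after Yy1 knockdown and to 64.1 and 73.7 FPKM in control, with overlap. Mitotic kinesins were 81% and 81.7% of the family's FPKM after Yy1 knockdown and 78.3% and 75.4% in control. The difference of means, 4.43 percentage points, was 0.715 points without Kif5b, so it rested on that gene. Within the mitotic group Kif11 held 7.45% and 7.49% after Yy1 knockdown and 12.6% and 12.1% in control. Ratios taken inside a library do not depend on its scaling, and the pairs were chosen after their values were seen. Kif4 over Kif11 was 1.27 and 1.18 in the Yy1 knockdown libraries and 0.433 and 0.515 in the control libraries. Kif23 over Kif11 was 1.98 and 1.96 in the Yy1 knockdown libraries and 1.01 in both control libraries, and Kif5b over Kifc3 was 1.1 and 0.937 after Yy1 knockdown and 2.03 and 2 in control. In all of these ratios the groups were apart.

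**Figure D5:**
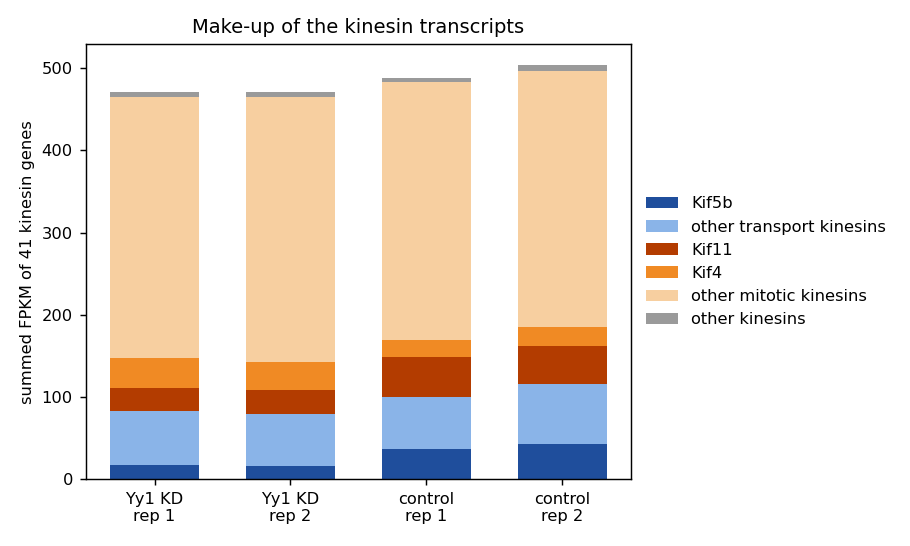
Summed FPKM of the 41 kinesin genes in each library as stacked bars, Yy1 knockdown libraries on the left, with Kif5b, Kif11 and Kif4 set off from the other members of their role. The bars reach 472 FPKM in both Yy1 knockdown libraries and 488 and 504 FPKM in the control libraries, with thinner Kif5b and Kif11 segments after Yy1 knockdown.

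Genes that work with kinesins were read from the same test over all genes, and none passed the adjusted threshold. Of 26 cargo partners of kinesins 22 were tested, with 8 higher and 14 lower, a median of -0.13 and, at an unadjusted p under 0.05, none higher and 2 lower (9.09%, beside 8.90% of all genes tested). The Yy1 knockdown libraries both exceeded the controls for 2 of them, or 9.09%, beside 21.8% of all genes tested, and were both below for 8, or 36.4%, beside 18.9%. Plekhm2, which joins kinesin-1 to lysosomes, was at 4.38 and 2.89 FPKM after Yy1 knockdown and at 7.04 and 6.82 FPKM in control, without overlap (log2 fold change -0.79, limma adjusted p = 0.518). Map7, a microtubule protein that recruits kinesin-1, was at 22.8 and 20.5 FPKM after Yy1 knockdown and at 28.6 FPKM in both controls (log2 fold change -0.39, limma adjusted p = 0.548). Borcs5, a subunit of the lysosome-positioning BORC complex, was at 0.761 and 0.436 FPKM after Yy1 knockdown and at 1.17 and 1.96 FPKM in control (log2 fold change -0.67, limma adjusted p = 0.606), and it reached the threshold for testing only through the control libraries. Trak1, which joins kinesin-1 to mitochondria, was at 3.81 and 3.88 FPKM after Yy1 knockdown and at 5.54 and 5.12 FPKM in control (log2 fold change -0.38, limma adjusted p = 0.617). These 4 are named for the smallest p of the list and do not stand for the others.

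Dynein, with its activator dynactin, is the main motor towards minus ends. Of 28 dynein and dynactin genes 24 were tested, 10 higher and 14 lower, with a median of -0.07, and at an unadjusted p under 0.05 there was 1 higher and 2 lower (12.5%, beside 8.90% of all genes tested). The dynactin subunit Dctn3 was at 3.13 and 4.09 FPKM after Yy1 knockdown and at 6.55 and 6.54 FPKM in control (log2 fold change -0.72, limma adjusted p = 0.515). Dync1li2, a light intermediate chain that binds cargo adaptors, was at 7.43 and 8.86 FPKM after Yy1 knockdown and at 11.1 and 13.2 FPKM in control (log2 fold change -0.52, limma adjusted p = 0.537). Both lay apart and lower after Yy1 knockdown. Actr1b, of the dynactin filament, was at 7.91 and 7.04 FPKM after Yy1 knockdown and at 4.69 and 5.32 FPKM in control (log2 fold change 0.50, limma adjusted p = 0.548). Dynlt1b, a dynein light chain, was at 15.6 and 11.9 FPKM after Yy1 knockdown and at 18.6 and 19.3 FPKM in control (log2 fold change -0.45, limma adjusted p = 0.564). Across the 24 genes tested the groups were apart for 15, or 62.5%, beside 40.7% of all genes tested. Of these, 9 were lower after Yy1 knockdown (37.5%, beside 18.9% of all genes tested). The other 6 were higher (25.0%, beside 21.8%). Members thus stood on both sides, with more of them lower.

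Of 35 partners of mitotic kinesins 34 were tested, 14 higher and 20 lower, with a median of -0.04, and at an unadjusted p under 0.05 there were 2 higher and 1 lower (8.82%, beside 8.90% of all genes tested). Spc24, of the kinetochore Ndc80 complex, was at 2.49 and 3.63 FPKM after Yy1 knockdown and at 5.55 and 5.59 FPKM in control (log2 fold change -0.71, limma adjusted p = 0.531). The next genes were higher after Yy1 knockdown. Cep55, needed for abscission, was at 6.23 and 6.6 FPKM after Yy1 knockdown and at 3.96 and 4.44 FPKM in control (log2 fold change 0.51, limma adjusted p = 0.541). Aurkb, the kinase of the chromosomal passenger complex, was at 16 and 13.2 FPKM after Yy1 knockdown and at 10.3 and 10.2 FPKM in control (log2 fold change 0.46, limma adjusted p = 0.548). Ttk, a kinase of the spindle checkpoint, was at 8.48 and 7.08 FPKM after Yy1 knockdown and at 4.17 and 6.2 FPKM in control (log2 fold change 0.52, limma adjusted p = 0.598). None of these 4 genes, named for the smallest p of the list, overlapped between groups. Over the list the groups were apart for 20 of 34, or 58.8%, beside 40.7% of all genes tested. Of these, 10 were above the controls and 10 below. The list counts Cenpe, itself a kinesin, among those below.

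Tubulins form the track itself. Of 19 tubulin genes 13 were tested, 8 higher and 5 lower, with a median of 0.08, and at an unadjusted p under 0.05 there was 1 in each direction (15.4%, beside 8.90% of all genes tested). The beta tubulin Tubb5 was at 5.69 and 5.61 FPKM after Yy1 knockdown and at 12.5 and 11.2 FPKM in control, a 2.09-fold lower mean (log2 fold change -0.95, SE 0.171, limma adjusted p = 0.442). The alpha tubulin Tuba3a was at 2.7 and 2.99 FPKM after Yy1 knockdown and at 0.597 and 1.24 FPKM in control (log2 fold change 1.02, limma adjusted p = 0.505). Tuba3a reached the threshold for testing only through the Yy1 knockdown libraries, and tubulin genes are near copies whose reads may be split. Tubb3 was at 2.18 and 2.43 FPKM after Yy1 knockdown and at 1.65 and 1.52 FPKM in control (log2 fold change 0.36, limma adjusted p = 0.68). The gamma tubulin Tubg1, which nucleates microtubules, was at 21.7 and 20.8 FPKM after Yy1 knockdown and at 24 and 25.2 FPKM in control (log2 fold change -0.20, limma adjusted p = 0.703).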

How the data were processed

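Of 30 samples in the series, the 4 RNA libraries with a column in the expression table were used, and 26 were not analysed here. The table holds FPKM as deposited by the authors. The submitters' processing notes list, without roles, Bowtie2 2.4.3, HISAT2 2.2.1, Trim Galore 0.6.7, SAMtools 1.4.1, bedtools, featureCounts and R 4.0.3, with the mm10 build. Strand setting, annotation release and the handling of multi-mapping reads were not given in the sources used.

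Genes averaging 1 FPKM or more across the 4 libraries entered a test on log2(FPKM + 1) with limma 3.58.1 in R 4.3.3, with group alone, trended moderation and Benjamini-Hochberg adjustment over all 12120 genes at 0.05. Such a fold change understates that of low genes. Steps between FPKM values were used to infer the library totals, and with these gave whole fragments for 12119 of these genes within a tolerance of 0.002 fragments. The fragments of a gene are the smallest whole numbers that the steps allow, so a gene's count can be understated by a common factor. Counting error does not cover copies made by PCR. Alternatives were a pseudocount of 0.1, a filter of 5 FPKM or none, median-ratio scaling, a replicate block, leaving out each library, robust moderation, protein-coding genes alone (RefSeq biotype), limma-voom on the recovered fragments, and the mitotic share without Kif11. The share without Kif5b was added after seeing the data.

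Named genes are every kinesin with a mean of at least 1 FPKM, Yy1, Cenpe and up to 4 members per partner list by smallest p. Genes below that mean, ratios and plotted genes were chosen after their values were seen. The members and lists were chosen with earlier results of these data known. The fit was tested on simulated data. Gene positions, promoter windows and biotypes come from RefSeq for GRCm38.p6, the assembly behind mm10. All 41 kinesins matched a locus, and 8 had no promoter window here.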

Additional observations from a re-analysis of the deposited data

How the results depend on the processing

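None of the 12120 genes was called, against 4 with a filter of 5 FPKM, 1 with robust moderation, 14 among protein-coding genes alone and 13 with limma-voom. No kinesin was called, against 1, Kif5b, among protein-coding genes alone (log2 fold change -1.22) and with limma-voom (-1.26). The cause was not tested. With a replicate block 0 genes and 0 kinesins were called and the medians were unchanged. The labels do not state whether same-numbered libraries belong together. Their deviations correlated at 0.099 over the tested genes, which cannot show whether they were collected or processed together. With 1 library left out, the lone library is assumed to vary like the pair of the other group, and 0 genes were called each time. The transport median was -0.203 with a filter of 5 FPKM and ran from -0.245 to 0.058 with 1 library left out, the mitotic median from -0.057 to 0.059, and the median of other kinesins from -0.213 to 0.327, with none to give under a filter of 5 FPKM. The mitotic median was -0.012 under median-ratio scaling. The difference in mitotic share ran from 2.99 to 5.87 points with 1 library left out, and was 5.64 without Kif11 and 0.715 without Kif5b. Of 27 kinesins 15 had 1 direction in all alternatives. The other 12 changed direction when 1 library was left out, with log2 fold changes from -0.22 to 0.19 for Kif13b, -0.10 to 0.0514 for Kif14, -0.38 to 0.0173 for Kif16b, -0.10 to 0.30 for Kif18a, -0.0006 to 0.19 for Kif1c, -0.11 to 0.0662 for Kif20a, -0.0250 to 0.10 for Kif22, -0.21 to 0.33 for Kif24, -0.0282 to 0.26 for Kif2a, -0.28 to 0.50 for Kif3a, -0.0027 to 0.30 for Kif3b and -0.30 to 0.0903 for Kif5c.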
